A study of Saccharomyces cerevisiae with 6 samples.

Results

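The genes described here are those of the cytosolic Hsp70 chaperone system of budding yeast, 10 of the 5449 Saccharomyces cerevisiae genes that could be named on the arrays. They were chosen by symbol, and for the gene with several probe sets the one with the highest mean signal was used. They comprise the 4 SSA genes (SSA1, SSA2, SSA3 and SSA4), the ribosome-bound Hsp70 genes SSB1 and SSB2, the Hsp110 genes SSE1 and SSE2, the J-domain cochaperone gene YDJ1 and the nucleotide exchange factor gene FES1. Expression was measured in haploid W303-1A cells of mating type a, a standard laboratory strain with the marker alleles ade2-1, trp1-1 and ura3-1, the alleles his3-11,15 and leu2-3,112, and can1-100, all shared by both groups. Each group carried a low-copy pRS413 plasmid in which the GAL1 promoter drives YRA1, the gene of an RNA-binding mRNA export factor. The control group, GAL-YRA1 (3 arrays), had the gene with its intron, and GAL-YRA1Δi (3 arrays) had the intron-less form, which escapes the control that the intron exerts on the level of Yra1. Control cells were therefore not free of plasmid-borne YRA1, and both groups were grown in raffinose and given 2% galactose for 4 hours. The comparison asks whether genes of this chaperone system differed in cells with an excess of Yra1.

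Hsp70 proteins bind exposed hydrophobic stretches of unfolded proteins in a cycle driven by ATP. J-domain proteins such as Ydj1 bring substrates and speed up ATP hydrolysis, which closes the grip of the Hsp70, and exchange factors such as Fes1 and the Hsp110 proteins Sse1 and Sse2 release ADP so that the substrate can leave. In yeast SSA1, SSA2, SSE1 and the SSB pair are made in unstressed cells, while SSA3, SSA4 and SSE2 are the copies known for low expression in growing cells and for induction by heat and other stress, through heat shock factor (Hsf1), the stress factors Msn2 and Msn4, or both. SSB1 and SSB2 are regulated more like ribosomal protein genes than like heat shock genes.

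Values are log2 signals made by RMA, in which 1 unit is a doubling, and a positive change means a higher signal in GAL-YRA1Δi. Errors are SD over n = 3 arrays a group, SE and 95% confidence intervals are from limma, and adjusted p-values are from limma with Benjamini-Hochberg adjustment over the 5498 tested probe sets. The study called a gene changed at 1.5-fold or more with an adjusted p below 0.01, and looser thresholds, with 0.05 in place of 0.01, are also used. The median signal of the tested probe sets was 11.16 to 11.18 on the 6 arrays, and the highest value on any array was 15.12. YRA1 signal was 13.35, 13.22 and 13.44 in GAL-YRA1 replicates 1, 2 and 3 and 14.48, 14.62 and 14.50 in GAL-YRA1Δi, in the direction of the labels. Of 6 genes specific to a cells, 5 lay between 11.77 and 14.09, whereas BAR1, which encodes the protease that degrades α-factor, lay at 3.14 to 3.47, below the level of 4.69 under which 95% of the probe sets taken as Schizosaccharomyces pombe fell. The 4 genes specific to α cells lay between 6.35 and 10.48, above that level too. The mean signal of the a-cell list was 11.53 to 11.75 in GAL-YRA1 and 11.27 to 11.76 in GAL-YRA1Δi, and that of the α-cell list was 8.07 to 8.52 and 7.72 to 8.24. Their part in the results below was not tested. In RNA from a whole culture, a large difference in some cells and a small one in all of them cannot be told apart.

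The stress-inducible copies were the members with the highest changes, and the constitutive copies had small positive ones. SSA3, SSA4 and SSE2 were 3.94-, 2.21- and 1.52-fold higher in GAL-YRA1Δi cells. SSA1, SSA2 and SSE1 were 1.11-, 1.19- and 1.15-fold higher, YDJ1 and FES1 1.22- and 1.21-fold, and SSB1 and SSB2 differed by 0.01 each (log2). No member passed the study's thresholds or the looser ones in limma (0 of 10, against 0% and 0.4% of all tested probe sets), and 7 of 10 had an unadjusted p below 0.05 and were higher, against 9.79% of all tested probe sets (0 of 10 were lower, against 6.31%). The study's own list of up-regulated genes nonetheless holds SSA3, SSA4, YDJ1 and FES1 with these same folds, and no other member. YDJ1 and FES1 lie below 1.5-fold there, so the list is not limited to genes that meet the stated thresholds. The median change of the 10 was 0.26, against 0.01 for all tested probe sets, and all 10 changes were positive, as were 52.4% of all. The 10 stayed positive when the arrays were quantile-normalized again or set to equal medians. With no overlap between groups, 6 of 10 were higher in GAL-YRA1Δi and 0 lower, against 13.6% and 8.57% of all tested probe sets. These counts describe members picked with earlier results of these data known.

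**Figure D1:**
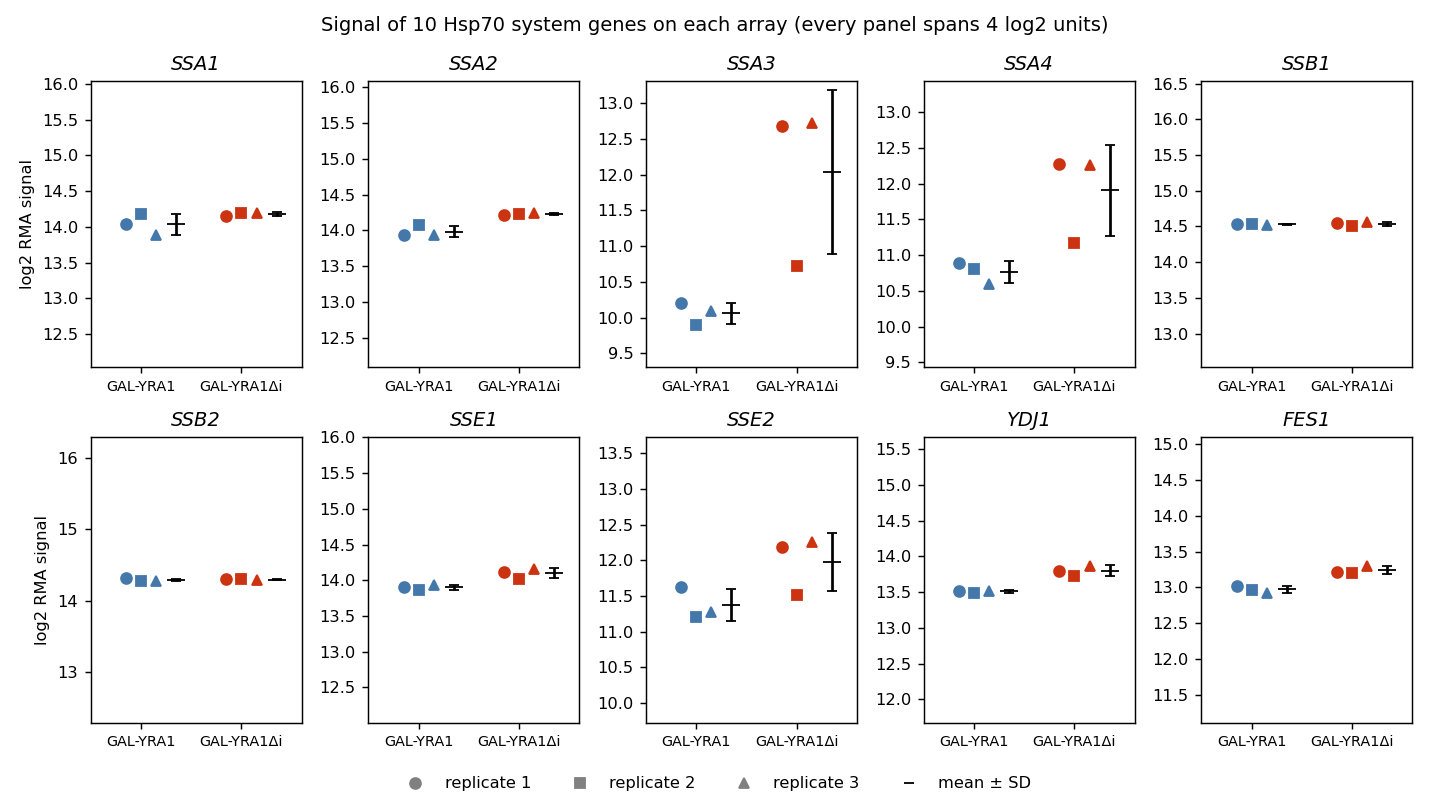
Log2 RMA signal (y axis) of each of the 10 genes on the 3 GAL-YRA1 and 3 GAL-YRA1Δi arrays (x axis). Marker shapes give the replicate number, black bars show mean ± SD, and every panel spans 4 log2 units. The GAL-YRA1Δi arrays of SSA3 and SSA4 lie above all their GAL-YRA1 arrays, with replicate 2 well below replicates 1 and 3, while SSB1 and SSB2 are flat.

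SSA3 (YBL075C) encodes the Ssa copy that is scarce in growing cells and made in stationary phase and under stress. Its signal was 10.20, 9.90 and 10.09 in GAL-YRA1 replicates 1, 2 and 3 and 12.68, 10.72 and 12.72 in GAL-YRA1Δi. Every GAL-YRA1Δi array lay above every GAL-YRA1 array, and replicate 2 of GAL-YRA1Δi lay much closer to the controls than replicates 1 and 3 did. The means were 10.06 ± 0.15 and 12.04 ± 1.15 (SD, n = 3), a change of 1.98 (SE 0.54, 95% confidence interval 0.67 to 3.29), the 7th highest of the 5498. The adjusted p was 0.160 in limma. With GAL-YRA1Δi replicate 2 left out the change was 2.64, or 6.23-fold, with an adjusted p of 0.00443 in limma. That array was the low one for SSA3, so leaving it out also narrows the spread of its group. Over the alternatives the adjusted p ran from 0.000903, with both replicate 2 arrays left out, to 0.508, with GAL-YRA1Δi replicate 3 left out instead.

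SSA4 (YER103W) encodes the most strictly heat-induced Ssa protein. As with SSA3, replicate 2 was the lowest GAL-YRA1Δi array, but the change was smaller. Its signal was 10.89, 10.81 and 10.59 in GAL-YRA1 replicates 1, 2 and 3 and 12.28, 11.17 and 12.26 in GAL-YRA1Δi. The groups did not overlap, although GAL-YRA1Δi replicate 2 lay nearer to the controls than to the other arrays of its group. The means were 10.76 ± 0.16 and 11.91 ± 0.63 (SD, n = 3), a change of 1.14 (SE 0.31, 95% confidence interval 0.39 to 1.89), 36th of the 5498, with an adjusted p of 0.159 in limma. With GAL-YRA1Δi replicate 2, the low array for this gene too, left out it was 1.51, or 2.85-fold, with an adjusted p of 0.00763. Over the alternatives the adjusted p ran from 0.00292, with array weights, to 0.508, with GAL-YRA1Δi replicate 3 left out instead. Without GAL-YRA1Δi replicate 2, SSA3 and SSA4 were the 2 of 10 members past the looser thresholds, against 2.09% of all tested probe sets, and the 2 with an adjusted p below 0.05 and a higher signal, against 2.04%.

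SSE2 (YBR169C), the stress-induced Hsp110 copy, gave 11.63, 11.21 and 11.28 in GAL-YRA1 replicates 1, 2 and 3 and 12.18, 11.51 and 12.25 in GAL-YRA1Δi. Here the groups overlapped, since GAL-YRA1Δi replicate 2 lay below GAL-YRA1 replicate 1, but the GAL-YRA1Δi array was the higher of each same-numbered pair. The means were 11.37 ± 0.23 and 11.98 ± 0.41 (SD, n = 3), a change of 0.61 (SE 0.22, 95% confidence interval 0.07 to 1.15), 124th of the 5498, with an adjusted p of 0.262 in limma. With GAL-YRA1Δi replicate 2 left out it was 0.84 (adjusted p = 0.0513, or over the alternatives 0.0123 with array weights to 0.645 without GAL-YRA1Δi replicate 3). With SSA3 and SSA4 it made up the 3 of 10 members that were at least 1.5-fold higher, against 2.46% of all tested probe sets.

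Of the constitutive Ssa genes, SSA2 (YLL024C) separated the groups and SSA1 (YAL005C) did not. SSA2, expressed at a steady level in growing cells, gave 13.94, 14.07 and 13.93 in GAL-YRA1 and 14.22, 14.23 and 14.25 in GAL-YRA1Δi replicates 1, 2 and 3. Its change was 0.25 (SE 0.07, 95% confidence interval 0.09 to 0.41), with an adjusted p of 0.157 in limma. SSA1, which is present without stress and is also raised by heat, gave 14.04, 14.18 and 13.88 in GAL-YRA1 and 14.15, 14.20 and 14.20 in GAL-YRA1Δi. The GAL-YRA1 arrays of SSA1 spread more widely (SD 0.15) than the GAL-YRA1Δi arrays (SD 0.03), and its change of 0.15 (SE 0.09, 95% confidence interval -0.07 to 0.36, adjusted p = 0.500 in limma) was about the size of the control spread. SSA1 and SSA2 are close copies, so probes for one can pick up the other and the split between them is uncertain.

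SSE1 (YPL106C), the main Hsp110 exchange factor of growing cells, gave 13.91, 13.86 and 13.94 in GAL-YRA1 and 14.12, 14.02 and 14.16 in GAL-YRA1Δi replicates 1, 2 and 3. The groups did not overlap, and the change was 0.20 (SE 0.07, 95% confidence interval 0.04 to 0.36, adjusted p = 0.236 in limma). FES1 (YBR101C), whose product releases nucleotide from Ssa proteins, gave 13.02, 12.97 and 12.92 in GAL-YRA1 and 13.22, 13.20 and 13.30 in GAL-YRA1Δi. Its groups did not overlap either, with a change of 0.27 (SE 0.06, 95% confidence interval 0.11 to 0.43, adjusted p = 0.137 in limma). GAL-YRA1Δi replicate 2 lay 0.06 below the mean of replicates 1 and 3 for FES1 and 0.12 below it for SSE1, while this gap was 1.98 for SSA3 and 1.10 for SSA4.

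YDJ1 (YNL064C), the abundant cytosolic J-domain protein, had the lowest p of the 10 genes, with tight arrays and a small change. It gave 13.52, 13.48 and 13.52 in GAL-YRA1 and 13.80, 13.72 and 13.87 in GAL-YRA1Δi replicates 1, 2 and 3. The lowest GAL-YRA1Δi array thus lay above the highest GAL-YRA1 array, and the SD within groups was 0.02 and 0.07. The change was 0.29 (SE 0.06, 95% confidence interval 0.13 to 0.45), with an adjusted p of 0.121 in limma.

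The SSB genes, whose products bind nascent chains at the ribosome, did not differ beyond the spread of the arrays. SSB1 (YDL229W) gave 14.53, 14.53 and 14.52 in GAL-YRA1 and 14.55, 14.51 and 14.56 in GAL-YRA1Δi replicates 1, 2 and 3, a change of 0.01 with a 95% confidence interval of -0.13 to 0.14 (adjusted p = 0.958 in limma). SSB2 (YNL209W) gave 14.31, 14.28 and 14.28 in GAL-YRA1 and 14.30, 14.30 and 14.29 in GAL-YRA1Δi, a change of 0.01 with an interval of -0.13 to 0.14 (adjusted p = 0.969 in limma). These intervals leave room for changes of up to about 1.1-fold either way. A second SSB1 probe set differed by -0.03 (adjusted p = 0.879 in limma), and the one used is of the kind that Affymetrix marks as shared between transcripts, so the split between both genes is uncertain. Their signals lay within 0.83 of the top value of 15.12, where differences can be compressed, and SSA1, SSA2 and SSE1 lay within 1.12 of it.

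**Figure D2:**
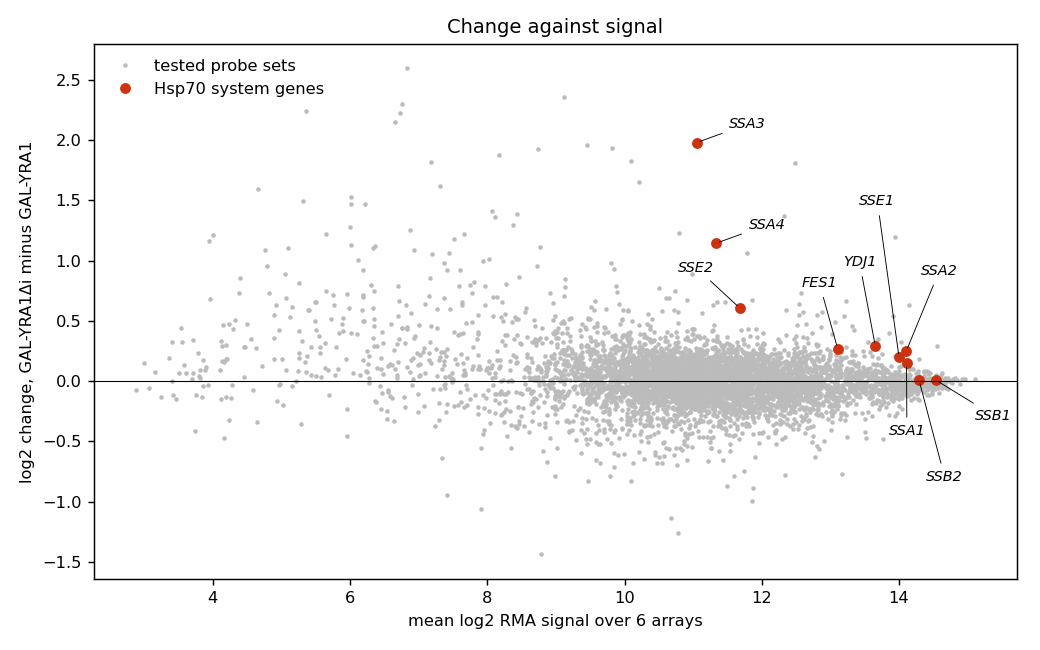
Log2 change (y axis, GAL-YRA1Δi minus GAL-YRA1) against mean log2 RMA signal over the 6 arrays (x axis) for the 5498 tested probe sets in grey and the 10 Hsp70 system genes in red. SSA3 at 1.98 and SSA4 at 1.14 stand above nearly all probe sets of like signal, and SSB1 and SSB2 lie at 0.01 close to the upper end of the signal range.

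Inducible and constitutive copies were then set side by side. Measured from the mean of the GAL-YRA1 arrays, the mean of SSA3, SSA4 and SSE2 was 1.65, 0.40 and 1.68 on GAL-YRA1Δi replicates 1, 2 and 3, and that of SSA1, SSA2 and SSE1 was 0.19, 0.18 and 0.23. On the GAL-YRA1 arrays the inducible mean ran from -0.09 to 0.18 and the constitutive mean from -0.06 to 0.07. The constitutive mean thus had nearly the same shift on all 3 GAL-YRA1Δi arrays, with an SD of 0.03, whereas the inducible mean varied with an SD of 0.73. Single constitutive copies were less even. The mean of GAL-YRA1Δi replicates 1 and 3 minus replicate 2 was 0.12 for SSE1, 0.01 for SSA2 and -0.03 for SSA1. The constitutive copies lay within 1.12 of the top value, where differences can be compressed. How far that adds to the contrast between copies was not tested. The change of the inducible copies exceeded that of the constitutive ones by 1.04 (log2), and by 0.84 to 1.45 with 1 array left out. No p is given for this sum over chosen genes, and 3 arrays against 3 could not go below 0.1 in an exact two-sided permutation test.

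Pair by pair, SSA3 changed by 1.83 more than SSA1 and by 1.73 more than SSA2 (log2), so the ratio of SSA3 to SSA1 signal was 3.56 times as high in GAL-YRA1Δi. The change of SSA4 exceeded that of SSA1 by 1.00 and that of SSA2 by 0.89. The Hsp110 pair was closer, with SSE2 exceeding SSE1 by 0.41, or a ratio 1.33 times as high. In same-numbered pairs of arrays the excess of SSA3 over SSA1 was 2.37, 0.80 and 2.32 for numbers 1, 2 and 3, that of SSA4 over SSA1 was 1.28, 0.35 and 1.36, and that of SSE2 over SSE1 was 0.33, 0.14 and 0.75. All of these differences had the same sign in the 3 pairs, and each was lowest in pair 2. The labels do not state that arrays of the same number were paired.

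**Figure D3:**
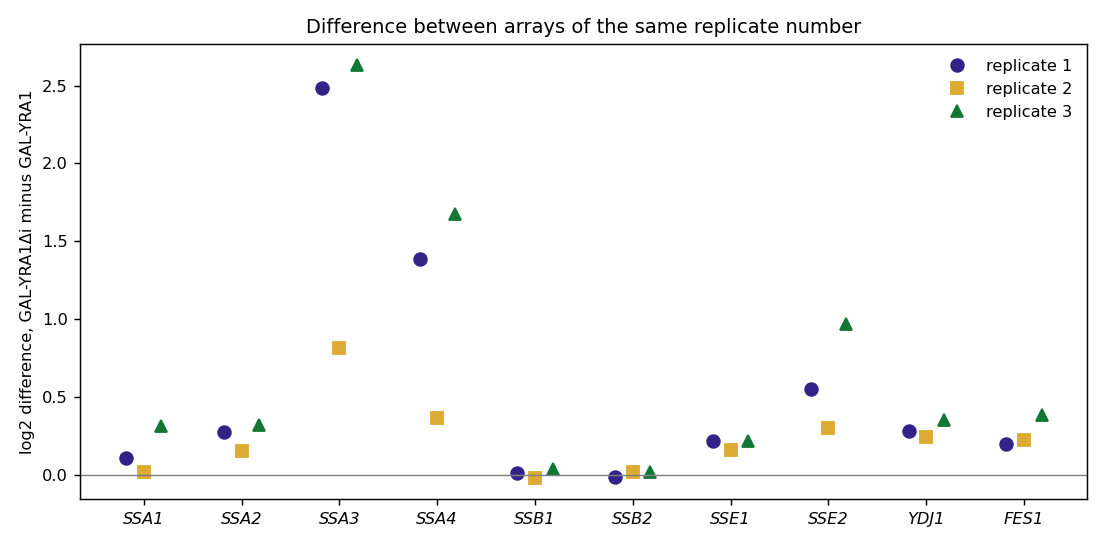
Log2 difference (y axis) between the GAL-YRA1Δi and GAL-YRA1 arrays of the same replicate number for each of the 10 genes (x axis). For SSA3 pairs 1 and 3 lie at 2.48 and 2.63 and pair 2 at 0.82, for SSA4 at 1.39, 1.67 and 0.37, while the 3 values of YDJ1 lie between 0.24 and 0.35.

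The widest spread between replicates was thus that of the inducible genes. Between same-numbered arrays, 8 of 10 members were higher in GAL-YRA1Δi in all 3 pairs, against 27.3% of all tested probe sets, and the exceptions were SSB1 (-0.02 in pair 2) and SSB2 (-0.01 in pair 1). On GAL-YRA1Δi replicate 2 the signal was the lowest of the 3 GAL-YRA1Δi arrays for 7 of 10 members, against 46.6% of all tested probe sets. SSA3 was 3.96-fold higher on the mean of replicates 1 and 3 than on replicate 2, SSA4 2.14-fold and SSE2 1.63-fold, while the other 7 genes differed by less than 1.1-fold. Over the tested probe sets, deviations from group means correlated at 0.695 between the GAL-YRA1 and GAL-YRA1Δi arrays of replicate 2. Between replicate 2 of one group and replicates 1 and 3 of the other the correlations ran from -0.64 to -0.492. How far both replicate 2 arrays lay from the others was not measured. With both left out, 3 members passed the looser thresholds (SSA3 with a change of 2.56 and an adjusted p of 0.000903, SSA4 with 1.53 and 0.00712, and SSE2 with 0.76 and 0.0322), against 4.2% of all tested probe sets. SSA2 and YDJ1 then had an adjusted p of 0.0337 and 0.0340 in limma with changes of 0.30 and 0.32 (0.0101 to 0.529 and 0.00863 to 0.485 over the alternatives), so that 5 of 10 members were higher at an adjusted p below 0.05, against 7.22% of all. In another setting, limma weighted each array by how closely its values followed the group means. The same 3 members then passed the looser thresholds, against 3.95% of all, and 7 of 10 were higher at an adjusted p below 0.05, against 10.7% of all. These weights come from the same values, so they are not a separate measure of array quality. With replicate number as a block 0 members passed the looser thresholds, against 1.44%.

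Across the 6 arrays SSA3 and SSA4 had a correlation of 0.99, SSA3 and SSE2 of 0.96, and YDJ1 and SSE1 of 0.98, while SSB2 had 0.16 to 0.48 with the other members. These values describe 6 arrays that share the group difference and the position of replicate 2. By the same measure the genes most like SSA4 were YKL070W (0.999, change 1.62), the stress gene DDR2 (0.998, change 0.40) and the kinase gene PSK2 (0.994, change 0.43). Those most like SSA1 were ALY1 (0.998), the silencing gene SIR3 (0.996) and SMY1 (0.989), and those most like SSB1, whose signal moved by no more than 0.05 over the 6 arrays, were OCA5 (0.976), RTS3 (0.974) and MTR4 (0.972), an RNA helicase gene. None of these 9 genes passed the looser thresholds in limma. They were picked for the highest correlations among the tested probe sets over only 6 arrays. Whether these correlations exceed what noise would give was not tested.

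Next, the regulators and other partners of the Hsp70 system were examined. HSF1, which encodes heat shock factor, gave 10.64, 10.57 and 10.58 in GAL-YRA1 and 10.94, 10.84 and 10.92 in GAL-YRA1Δi replicates 1, 2 and 3. The groups did not overlap, and its change was 0.30 (SE 0.06, adjusted p = 0.0983 in limma). MSN2 and MSN4, the genes of the general stress factors, differed by 0.06 (adjusted p = 0.868) and 0.12 (adjusted p = 0.686) in limma with overlapping groups, and the sign of MSN2 depended on the setting.

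Among 14 other heat shock factor targets 13 changes were positive, the median was 0.27, and none passed the looser thresholds (0 higher and 0 lower, with 9 higher and 0 lower at an unadjusted p below 0.05 in limma). Of all tested probe sets, 52.4% were positive, and 9.79% were higher and 6.31% lower at that p. BTN2, a gene for a protein that sorts aggregates, differed by 1.37 (adjusted p = 0.0523 in limma) and CPR6, an Hsp90 cochaperone gene, by 0.42 (adjusted p = 0.0806). The GAL-YRA1Δi arrays of BTN2, at 13.09, 12.74 and 13.18 for replicates 1, 2 and 3, lay closer together than those of SSA3 and SSA4. With GAL-YRA1Δi replicate 2 left out BTN2 had an adjusted p of 0.0246 and CPR6 of 0.0365 (0.000876 to 0.278 and 0.00237 to 0.360 over the alternatives, each highest without GAL-YRA1Δi replicate 3), and with GAL-YRA1 replicate 2 left out BTN2 had 0.0410. Of the 14 genes, 6 (42.9%) were lowest on GAL-YRA1Δi replicate 2 within their group, against 46.6% of all tested probe sets.

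Of 10 Msn2/4 stress genes 7 had a positive change and 3 a negative one, with a median of 0.36 and 0 past the looser thresholds in either direction (4 higher and 0 lower at an unadjusted p below 0.05 in limma, against 9.79% and 6.31% of all tested probe sets). HSP26, a small heat shock protein gene, gave 11.99, 11.46 and 11.28 in GAL-YRA1 and 13.88, 12.40 and 13.89 in GAL-YRA1Δi replicates 1, 2 and 3, a change of 1.81 (adjusted p = 0.139 in limma). As with SSA3, replicates 1 and 3 of GAL-YRA1Δi were alike and replicate 2 was lower. Of the 10 Msn2/4 genes, 7 were lowest on GAL-YRA1Δi replicate 2 within their group, against 46.6% of all tested probe sets. With GAL-YRA1Δi replicate 2 left out the change of HSP26 was 2.31 (adjusted p = 0.0115, or over the alternatives 0.00346 with array weights to 0.467 without GAL-YRA1Δi replicate 3). HSP12, a membrane-bound stress protein gene, differed by 0.29 (adjusted p = 0.124), and the lowest change of the list was -0.31, that of GPH1, the glycogen phosphorylase gene.

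**Figure D4:**
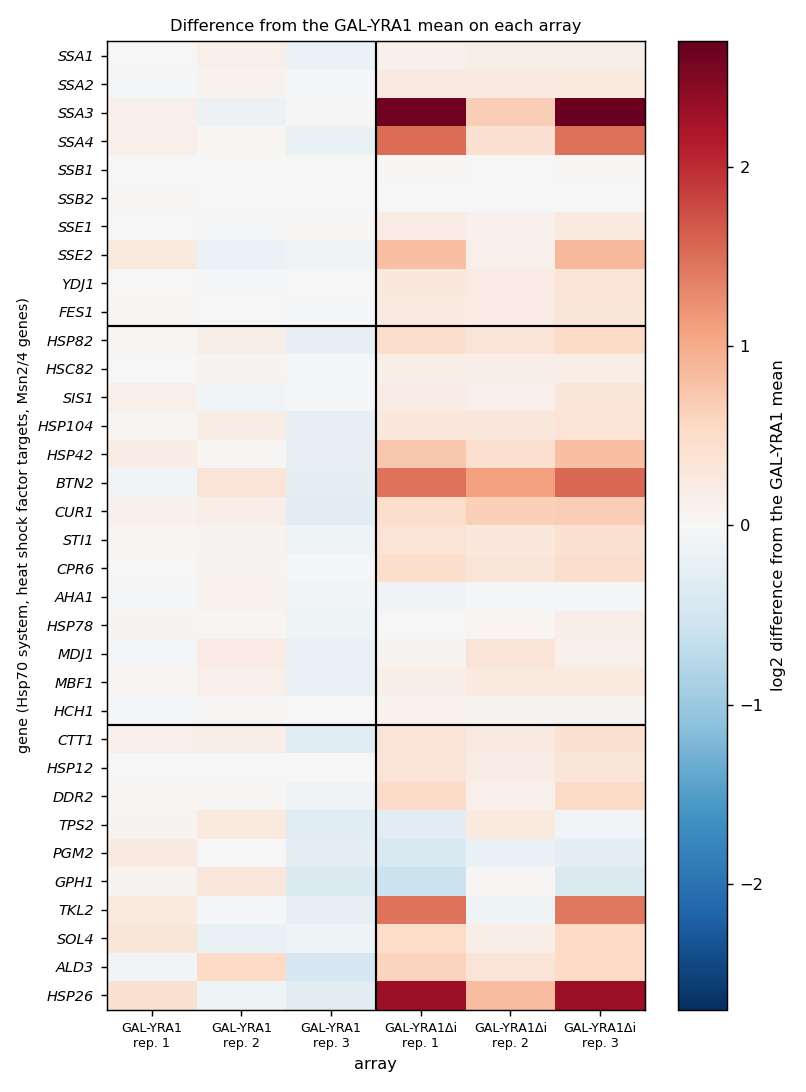
Log2 difference from the mean of the GAL-YRA1 arrays (colour) for each array (columns) and each gene (rows) of the Hsp70 system, the other heat shock factor targets and the Msn2/4 stress genes. SSA3, SSA4 and HSP26 are darkest on GAL-YRA1Δi replicates 1 and 3 and paler on replicate 2, while BTN2 is dark on all 3 GAL-YRA1Δi arrays.

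The listed J-domain protein genes other than YDJ1 had changes below that of YDJ1 (0.29), although that of JJJ2 was close to it. All 11 genes were positive, with a median of 0.11, values from 0.0048 to 0.28 and 0 past the looser thresholds in either direction (3 higher and 0 lower at an unadjusted p below 0.05 in limma). Of all tested probe sets, 52.4% were positive, and 9.79% were higher and 6.31% lower at that p. SIS1, the essential J-domain partner of Ssa proteins, differed by 0.22 (adjusted p = 0.303 in limma) with overlapping groups, JJJ2 by 0.28 (adjusted p = 0.214) and CWC23, which acts in splicing, by 0.25 (adjusted p = 0.165). SNL1, the gene of a membrane-anchored exchange factor, gave 11.18, 11.80 and 11.37 in GAL-YRA1 and 11.12, 11.70 and 11.02 in GAL-YRA1Δi replicates 1, 2 and 3. Its change was -0.17 (SE 0.23, adjusted p = 0.796 in limma), of opposite sign to those of FES1 and the SSE genes with an interval from -0.73 to 0.39, and its highest value in each group was that of replicate 2.

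The partners of Ssb at the ribosome likewise had small changes. SSZ1 and ZUO1, which form the complex that works with Ssb, differed by 0.11 (adjusted p = 0.488 in limma) and 0.10 (adjusted p = 0.487), each with no overlap between groups, and BTT1, a minor subunit of the nascent chain complex, by 0.24 (adjusted p = 0.139). Over the 5 genes of this list the median was 0.10 and 0 passed in either direction (1 higher and 0 lower at an unadjusted p below 0.05 in limma). The ribosomal protein genes had a median of -0.05, with 113 of 122 negative (100 after quantile normalization again) and 0 past the looser thresholds (0 higher and 4 lower at an unadjusted p below 0.05 in limma). RPS22B (-0.46, adjusted p = 0.0796) and RPL22B (-0.34, adjusted p = 0.126) had the lowest p of these genes in limma. For both lists, the share of all tested probe sets at an unadjusted p below 0.05 was 9.79% higher and 6.31% lower.

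**Figure D5:**
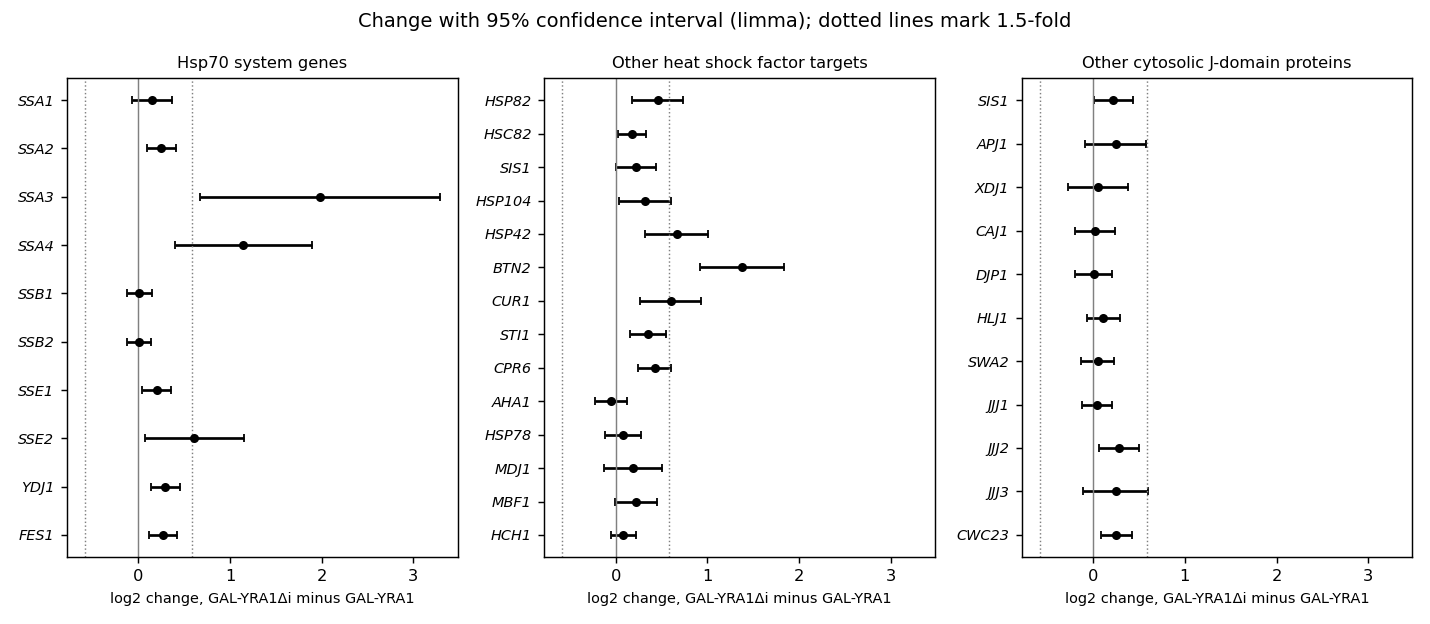
Log2 change (x axis, GAL-YRA1Δi minus GAL-YRA1) with the 95% confidence interval from limma for the Hsp70 system genes, 14 other heat shock factor targets and 11 other J-domain protein genes. Dotted lines mark 1.5-fold. The widest interval is that of SSA3, from 0.67 to 3.29, and those of SSB1 and SSB2 span 0.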

How the data were processed

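The authors deposited log2 signals of 10928 probe sets on 6 Affymetrix Yeast Genome 2.0 arrays, 1 colour, made by RMA (background correction, quantile normalization, probe set summary), and the submitters' processing notes also name limma. Their versions are not given in the sources used here. RMA gives all arrays alike distributions, so a general shift of most transcripts would go unnoticed. Probe sets were matched by gene identifier to the RefSeq R64 gene table, which gave 5498 probe sets of 5449 genes, and 1746 annotated ones that matched no gene there were taken as S. pombe. The test was limma 3.58.1 (lmFit, eBayes, group as the one term), run in R 4.3.3, with Benjamini-Hochberg adjustment over the 5498 and no filter on dim probe sets. The fit was tested on simulated data with independent noise on each array. That simulation did not include the position of the replicate 2 arrays, so it does not cover it.

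The members, lists and tests were chosen with earlier results of these data known. Named were the 10 members, 8 fixed genes (YRA1, HSF1, MSN2, MSN4, SNL1, SIS1, KAR2, SSZ1), per list the 2 genes of lowest p, and the 3 most correlated with SSA4, SSA1 and SSB1. GPH1 and SSC1 were named after their values were seen. Replicates were labelled as biological. Same-numbered arrays were treated as pairs, although the labels state no pairing. The correlation of deviations from group means was 0.344, 0.695 and 0.301 for numbers 1, 2 and 3. It was higher, at 0.664, for GAL-YRA1 replicate 1 with GAL-YRA1Δi replicate 3. For GAL-YRA1 replicate 3 with GAL-YRA1Δi replicate 1 it was 0.582. Only for number 2 was the same-numbered value the highest, so these values do not establish pairing for numbers 1 and 3. The number of arrays limits the precision. No sequences or coordinates were used here.

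The alternatives were the replicate block, quantile normalization again, equal array medians, a filter at the S. pombe level, all probe sets, an intensity trend, robust eBayes, array weights, each array left out, both replicate 2 arrays left out, the mean over the probe sets of a gene, and other thresholds. Values within pairs, and another choice of copies, were added after seeing the data.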

Additional observations from a re-analysis of the deposited data

How the results depend on the processing

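The changes of the 10 genes kept their direction in 158 of 160 values over 16 alternatives, and 14 of the 160 had an adjusted p below 0.05 in limma, 7 with array weights (10.7% of all probe sets were then higher at this level), 5 with both replicate 2 arrays left out (7.22%) and 2 without GAL-YRA1Δi replicate 2 (2.04%). At the looser thresholds 3 members passed with array weights (217 probe sets in all), 3 with both replicate 2 arrays left out (231 in all), and 0 to 2 with 1 array left out. With the replicate block, 79 probe sets and 0 members passed, and the block changed no call on a member. At an unadjusted p below 0.05 there were 885 probe sets and 7 members. With 1 array left out the looser thresholds gave 0 to 115 probe sets (115 without GAL-YRA1Δi replicate 2) and the study's thresholds 0 to 29. The study's thresholds gave 3 with the S. pombe filter, 4 with all probe sets, 4 with the mean over probe sets of a gene, 1 with the intensity trend, 152 with array weights and 89 with both replicate 2 arrays left out. The excess of inducible over constitutive copies was 1.36 with the SSE pair left out and 1.07 with SSA4 and SSA1 left out.

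Among the named genes fitted under the alternatives, which did not include SSC1, direction changed for SSB1, SSB2, MSN2, SNL1 and KAR2. Single replicate pairs also gave the opposite sign for MSN2 (-0.15 in pair 1), MSN4 (-0.07 in pair 2) and SSC1 (-0.05 in pair 1), and pairs of both signs for KAR2. SSB1 was -0.0085 with the mean of its probe sets and -0.022 in pair 2, and SSB2 was -0.0024 with array weights and -0.013 in pair 1. MSN2 was -0.0029 with array weights. With 1 array left out MSN2 ran from -0.046 to 0.14, SNL1 from -0.38 to 0.0060 and KAR2 from -0.043 to 0.056. KAR2 was 0.034 with quantile normalization, 0.00097 with equal medians, 0.032 with array weights and 0.044 with both replicate 2 arrays left out. The causes of these shifts were not tested. Signals near the top of the scale limit how well changes of the constitutive genes can be sized.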

Other observations

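The Hsp70 genes of other compartments were measured on the same arrays. Of 7 genes for the Hsp70s of the endoplasmic reticulum and mitochondria and their exchange factors, 2 had a positive and 5 a negative change (3 and 4 after quantile normalization again or with equal array medians), with a median of -0.14 and 0 past the looser thresholds in limma in either direction (1 lower and 0 higher at an unadjusted p below 0.05, against 6.31% and 9.79% of all tested probe sets). KAR2, the main Hsp70 gene of the endoplasmic reticulum, gave 14.03, 14.00 and 14.03 in GAL-YRA1 and 14.10, 13.91 and 14.05 in GAL-YRA1Δi replicates 1, 2 and 3, and its confidence interval ran from -0.18 to 0.18. LHS1, which encodes an Hsp70-related exchange factor for Kar2, differed by -0.31 (adjusted p = 0.292 in limma), with no overlap between groups. The mitochondrial copy gene ECM10 differed by -0.14 (adjusted p = 0.360), also with no overlap, and SSC1, the main mitochondrial Hsp70 gene, by 0.06 (adjusted p = 0.778) with overlapping groups. Whether these differences from the cytosolic genes exceed the spread was not tested.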
